A study of Mus musculus with 10 samples.

Results

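The comparison described here sets IL-21 against IL-2 in activated mouse CD8+ T cells while lactate dehydrogenase (LDH) was inhibited. It takes 4 of the 10 poly(A) RNA libraries of the series, the 2 of the IL-21 + LDHi group and the 2 of the IL-2 + LDHi group, chosen by their labels. CD8+ T cells isolated with a magnetic kit from spleens of C57BL/6N mice were activated for 48 h on plate-bound anti-CD3 (2 µg/ml) with soluble anti-CD28 (2 µg/ml), pooled, washed and cultured for a further 48 h. In that second culture the IL-21 + LDHi group received mouse IL-21 (100 ng/ml) and the IL-2 + LDHi group human IL-2 (100 IU/ml). Both groups carried the LDH inhibitor NCI-737 (LDHi, 1 µM) from activation onward, with the compound replenished. The other 6 libraries are 2 each of IL-21, IL-2 and no cytokine, all without inhibitor. LDHi was never given without a cytokine, so an effect on activation and an effect on the response to the cytokine cannot be told apart. The labels do not say what separates replicates, and p-values therefore measure only the spread between libraries, which may be technical.

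IL-2 and IL-21 signal through receptors that share the common gamma chain. IL-2 acts mainly through JAK1, JAK3 and STAT5 and is known for driving T cell division and effector function, whereas IL-21 acts mainly through STAT3 and is known for preserving less differentiated, memory-like CD8+ T cells. LDH converts pyruvate to lactate and regenerates the NAD+ that rapid glycolysis needs. Activated T cells use this route heavily.

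Among 14357 genes tested, 3742 differed between IL-21 + LDHi and IL-2 + LDHi (26.1%, edgeR's quasi-likelihood test, Benjamini-Hochberg adjusted p under 0.05). Of these, 1348 were higher with IL-21 (9.39% of genes tested) and 2394 were lower (16.7%), and these percentages are the background for every count of genes below. Of the calls 36.0% were thus increases, against 19.4% with limma on RPKM, 27.0% with library size alone and 47.5% in a fit of only the 2 groups. The number called was 2221 or 2160 without IL-21 + LDHi replicate 1 or 2 and 2108 or 2055 without IL-2 + LDHi replicate 1 or 2. Without IL-21 replicate 1 or 2, libraries outside the comparison that share its estimate of spread, 2341 or 2349 genes were higher. Changes of at least 2-fold were mostly decreases, with 419 genes higher (2.92%) and 1583 lower (11.0%). The RPKM values of the groups did not overlap for 75.6% of the genes tested, so a lack of overlap alone is common. Genes of cell division, effector cytokines, granzyme B and NK-type receptors were lower with IL-21, while the feedback inhibitor Socs3 and the lymph node entry receptor Ccr7 were among those higher. Without inhibitor, 7123 genes differed between IL-21 and IL-2 (49.6%), 24.9% of those tested being higher and 24.7% lower.

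The promoters of 4 genes are shown because STAT3 and STAT5 both bind the palindrome TTCNNNGAA, which reads the same on both strands. These 4 were picked by hand and not by a rule, and all hold a match, unlike most named genes. Each window runs from 250 bases before to 50 bases after a RefSeq start site of GRCm38.p6, 5′ to 3′ on the gene's strand, with each match in capitals. Socs3 (chr11:117969317-117969616, minus strand) and Bcl6 (chr16:23988803-23989102, minus strand) were higher with IL-21, as was Moxd1 (chr10:24223267-24223566, plus strand), whereas Cish (chr9:107296409-107296708, plus strand) was lower.
Socs3: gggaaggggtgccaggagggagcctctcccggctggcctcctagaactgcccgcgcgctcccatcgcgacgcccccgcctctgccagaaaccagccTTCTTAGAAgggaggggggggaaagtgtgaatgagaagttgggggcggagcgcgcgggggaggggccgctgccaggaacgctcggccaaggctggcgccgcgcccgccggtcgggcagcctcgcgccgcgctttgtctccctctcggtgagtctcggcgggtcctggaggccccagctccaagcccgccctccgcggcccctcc
Cish: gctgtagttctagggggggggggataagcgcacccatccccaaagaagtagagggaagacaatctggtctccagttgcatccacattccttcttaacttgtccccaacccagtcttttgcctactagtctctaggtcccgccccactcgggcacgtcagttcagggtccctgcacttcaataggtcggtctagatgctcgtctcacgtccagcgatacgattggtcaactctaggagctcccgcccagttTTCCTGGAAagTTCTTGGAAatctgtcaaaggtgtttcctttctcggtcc
Bcl6: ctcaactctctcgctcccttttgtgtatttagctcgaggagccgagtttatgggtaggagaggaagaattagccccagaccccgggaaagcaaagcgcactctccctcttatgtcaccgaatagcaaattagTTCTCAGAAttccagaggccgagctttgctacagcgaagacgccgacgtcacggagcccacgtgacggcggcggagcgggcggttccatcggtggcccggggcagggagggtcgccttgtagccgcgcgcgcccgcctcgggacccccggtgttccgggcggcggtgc
Moxd1: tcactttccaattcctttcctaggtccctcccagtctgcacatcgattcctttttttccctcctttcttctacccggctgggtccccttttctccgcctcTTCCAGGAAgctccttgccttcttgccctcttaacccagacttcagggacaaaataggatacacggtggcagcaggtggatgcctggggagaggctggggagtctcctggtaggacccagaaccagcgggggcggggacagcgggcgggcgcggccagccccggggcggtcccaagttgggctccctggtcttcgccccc
Counted from the start site, the match began at -154 in Socs3, at -118 in Bcl6 and at -150 in Moxd1. Cish held 2 matches, at 0 and 11. A second annotated start of Bcl6 had 3 matches, at -168, -122 and -88. Of 32851 promoters of the same length 8.30% held the motif. Counted per gene, 9.55% of all genes and 8.39% of the genes tested had it in at least 1 promoter, against 17 of the 150 named genes with a promoter there (11.3%), 6 of 28 named genes that were higher and 9 of 97 that were lower. No match in this window was found for the named genes Bcl3, Il21r and Il2ra, though not every named gene had a promoter there. A match describes letters only and is not a measured binding site.

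The feedback genes of the 2 cytokines separated the groups completely. Socs3, which encodes a STAT3-induced inhibitor of cytokine receptors, had 226 and 277 RPKM in IL-21 + LDHi, against 19.3 and 22.1 RPKM in IL-2 + LDHi. Its log2 difference was 3.78 ± 0.17 (SE, n = 2 libraries per group, as for all values below; adjusted p = 5.74e-07). Cish, the STAT5-induced inhibitor of IL-2 signalling, had 0.321 and 0.480 RPKM with IL-21 and 38.4 and 38.7 RPKM with IL-2, a log2 difference of -6.41 ± 0.30 (adjusted p = 7.51e-07). Socs3 was thus high in both IL-21 libraries and Cish in both IL-2 libraries, with no overlap. Socs2, another STAT5-induced inhibitor, was also lower with IL-21, at 0.156 and 0.287 RPKM against 12.1 and 12.7 RPKM with IL-2 (log2 difference -5.61). Gadd45g, a stress and growth arrest gene, was higher, at 41.8 and 56.2 RPKM with IL-21 against 3.58 and 4.44 RPKM with IL-2.

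Of 26 tested genes listed as STAT3 targets, 11 were higher with IL-21 and 7 were lower, with a median log2 difference of 0.60 against 0.01 over all genes tested. With limma on log2(RPKM + 1), a scale that understates changes of low genes, these medians were 0.19 and -0.07. The higher ones included Bcl3, a nuclear partner of NF-kB, with 41.4 and 49.8 RPKM in IL-21 + LDHi against 4.14 and 4.62 RPKM in IL-2 + LDHi. Bcl6, a transcriptional repressor of follicular helper and memory T cells, had 10.8 RPKM in both IL-21 libraries, against 2.01 and 2.03 RPKM with IL-2 (log2 difference 2.59 ± 0.14, adjusted p = 1.32e-06). The survival kinase Pim1 also rose, with 188 and 182 RPKM in the IL-21 libraries and 85.3 and 84.8 RPKM in the IL-2 libraries. Each of these genes was at least 2-fold higher in both IL-21 libraries than in either IL-2 library. Listed STAT3 targets that were lower with IL-21 included Prdm1 and Irf4, transcription factors of terminal effector cells, and Lif, Maf and Gfi1.

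Of 27 tested genes listed as IL-2 and STAT5 targets, 16 were lower with IL-21 and 3 were higher (median log2 difference -0.82). Lta, which encodes lymphotoxin alpha, had 0.958 and 0.822 RPKM with IL-21, against 48.1 and 46.0 RPKM with IL-2 (log2 difference -5.54 ± 0.17, adjusted p = 9.32e-08). The costimulatory receptor gene Tnfrsf9 (4-1BB) had a log2 difference of -4.37, and the cyclin genes Ccnd2 and Ccnd3 had -0.72 and -0.64. The 3 higher genes were Pim1, Gadd45g and Ecm1.

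The IL-2 receptor genes Il2ra and Il2rb were lower and the IL-21 receptor gene Il21r was higher with IL-21. Il2ra, the alpha chain that gives the IL-2 receptor its high affinity, had 1.60 and 2.14 RPKM in IL-21 + LDHi and 35.1 and 37.2 RPKM in IL-2 + LDHi (log2 difference -4.09 ± 0.36, adjusted p = 4.42e-05). The beta chain gene Il2rb had 39.2 and 43.1 RPKM with IL-21, against 182 and 180.1 RPKM with IL-2. Il21r, the receptor of IL-21, went the other way, with 121 and 135 RPKM in the IL-21 libraries and 39.8 and 41.8 RPKM in the IL-2 libraries (log2 difference 1.83). None of these 3 receptors overlapped between the groups. Il6st and Il6ra, the signalling and binding chains of the IL-6 receptor, rose by 1.76 and 1.61 on the log2 scale, and the common gamma chain gene Il2rg by 0.70. Il12rb1, a chain of the IL-12 receptor, fell by 4.28. Over the 30 receptor genes tested, 7 were higher and 10 were lower.

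Of the 22 JAK, STAT and SOCS genes, 7 were higher with IL-21 and 3 were lower. Jak3, the kinase bound to the common gamma chain, had 55.5 and 56.7 RPKM with IL-21 against 16.1 and 16.3 RPKM with IL-2 (log2 difference 1.97), and Stat3 had 58.7 and 59.1 RPKM with IL-21 against 33.2 and 33.1 RPKM with IL-2 (log2 difference 1.01). Stat5a rose by 1.04. The higher count fell when IL-2 + LDHi replicate 1 or 2, or IL-21 + LDHi replicate 2, was left out. The lower count rose when 1 library of the IL-21 group without inhibitor was left out.

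**Figure D1:**
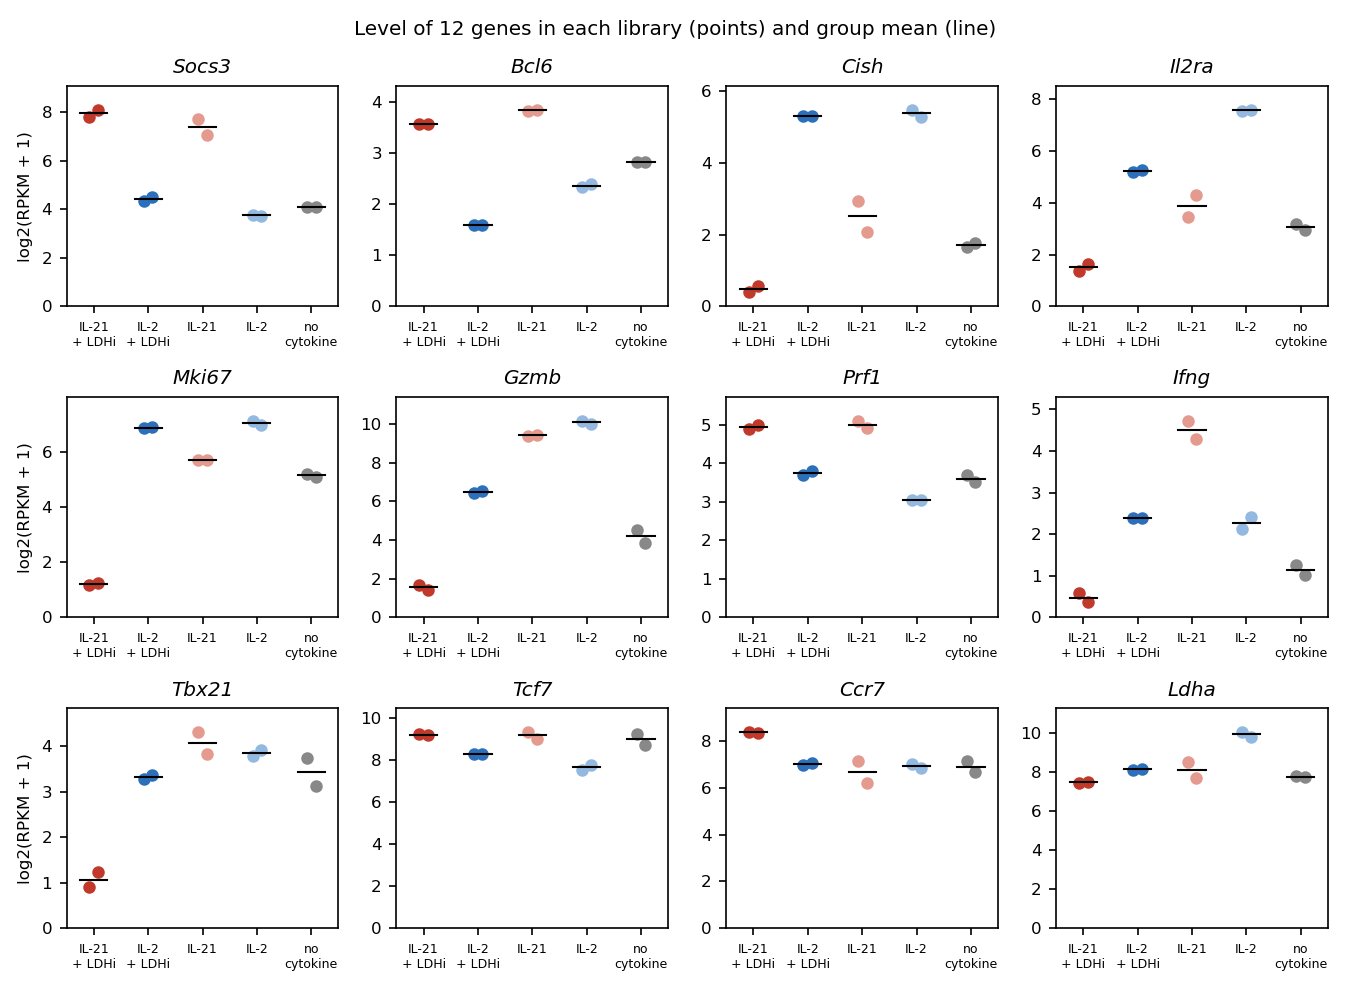
Levels of 12 genes as log2(RPKM + 1) in the 5 groups, IL-21 + LDHi and IL-2 + LDHi on the left. Points are libraries and lines are means of the log values; Mki67, Gzmb, Cish and Il2ra lie lower in IL-21 + LDHi than in IL-2 + LDHi, and Socs3 and Bcl6 lie higher.

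The genes of cell division differed most uniformly. All 25 tested genes of the G2 and M phases were lower with IL-21, by a median of -5.45 on the log2 scale. Mki67, the proliferation marker Ki-67, had 1.24 and 1.39 RPKM in IL-21 + LDHi and 116 and 117 RPKM in IL-2 + LDHi, a log2 difference of -6.28 ± 0.17 (adjusted p = 7.56e-08). Ccna2, which encodes cyclin A2, had 0.667 and 0.794 RPKM with IL-21 and 71.0 and 74.1 RPKM with IL-2 (log2 difference -6.45). Top2a, the topoisomerase that untangles replicated DNA, had 4.84 and 4.93 RPKM with IL-21 and 155 and 160.4 RPKM with IL-2 (log2 difference -4.83). The groups did not overlap in any of these 3 genes. The smallest decrease of the list was that of Cenpa, the centromeric histone, at -2.69. Summed over the 25 genes, RPKM was 31.8 and 33.4 in the IL-21 libraries and 1088 and 1144 in the IL-2 libraries.

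All 27 tested S phase genes were also lower with IL-21, with a median log2 difference of -1.90. Rrm2 and Tk1, which supply deoxynucleotides, had log2 differences of -5.89 and -5.95, and the replication licensing factor Cdc6 had -5.74. Subunits of the MCM replicative helicase fell less, between -2.62 for Mcm5 and -0.69 for Mcm4, and Rfc2, part of the clamp loader, fell least at -0.51. All 25 G2 and M phase genes stayed lower in each fit that left out 1 library, and at least 24 of the 27 S phase genes did. Cdkn1a, the cyclin-dependent kinase inhibitor p21, was itself lower with IL-21, at 0.512 and 0.564 RPKM against 5.60 and 5.12 RPKM with IL-2 (log2 difference -3.13).

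Without inhibitor the same 25 G2 and M phase genes were lower in IL-21 than in IL-2, but with a median of -1.56. The interaction, which is the IL-21 minus IL-2 log2 difference under LDHi minus that without inhibitor, was called lower for all 25 (median -3.78). For Mki67 it was -5.10 ± 0.21 (adjusted p = 5.39e-06), from a log2 difference of -6.28 with inhibitor and -1.18 ± 0.14 without. Of the S phase genes, 15 had a lower and 1 a higher interaction. The interaction was called lower for 13.8% and higher for 7.98% of all genes tested.

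**Figure D2:**
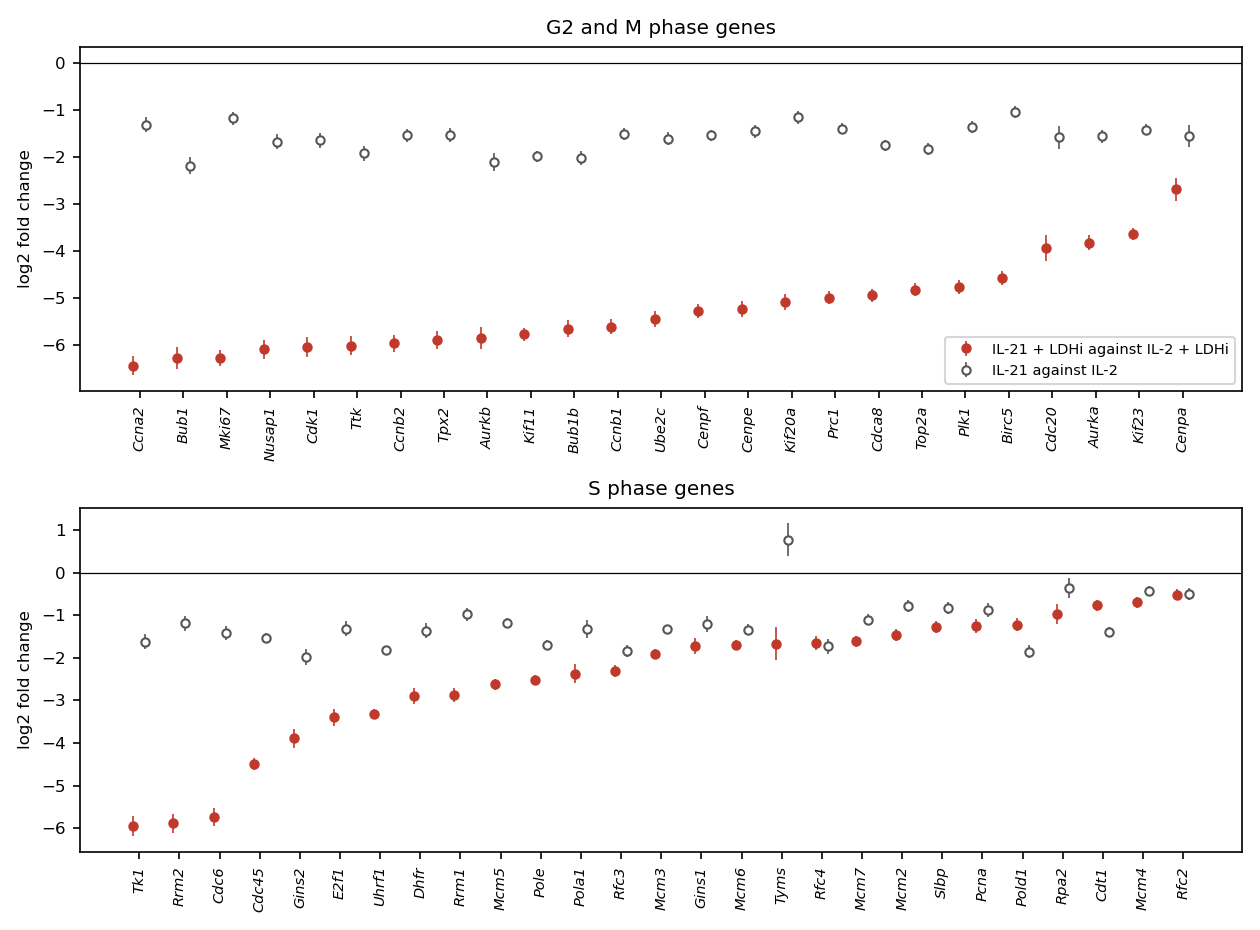
Log2 differences ± SE of 25 G2 and M phase genes and 27 S phase genes, with filled points for IL-21 + LDHi minus IL-2 + LDHi and open points for IL-21 minus IL-2. The filled points of the G2 and M phase genes have a median of -5.45 and the open ones of -1.56; for the S phase genes the medians are -1.90 and -1.32.

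Among cytotoxic molecules, granzyme B and perforin moved in opposite directions. Gzmb, the main apoptosis-inducing granule protease, had 2.22 and 1.65 RPKM in IL-21 + LDHi and 83.4 and 92.8 RPKM in IL-2 + LDHi, a log2 difference of -5.33 ± 0.29 (adjusted p = 1.78e-06). Prf1, the pore-forming protein that lets granzymes into the target cell, had 28.6 and 30.9 RPKM with IL-21, against 12.04 and 13.0 RPKM with IL-2 (log2 difference 1.43 ± 0.11, adjusted p = 1.62e-05). Both IL-21 libraries were thus below both IL-2 libraries for Gzmb and above them for Prf1. The death ligand gene Fasl had 0.200 and 0.0825 RPKM with IL-21 and 5.29 and 4.59 RPKM with IL-2 (log2 difference -4.94), and Gzmc had 2 reads in the IL-21 libraries and 210 in the IL-2 libraries. That ratio is 82.9-fold higher with IL-2, with a 95% exact interval of 22.7 to 689 that covers counting error only. Reads of the neighbouring, closely related granzyme genes may be shared in the authors' counting.

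Of 23 tested cytotoxic genes, 8 were lower with IL-21 and 2 were higher, and the median log2 difference was -0.52 (-0.40 with genes at 0 reads set to their bound). Serpinb9, an inhibitor that protects the cell from granzyme B, fell by 1.74. Besides Prf1, the higher gene was Ctsw, a lysosomal protease of cytotoxic cells, with 239 and 251 RPKM in IL-21 + LDHi and 135 and 133 RPKM in IL-2 + LDHi; its call was lost without IL-2 + LDHi replicate 1 or replicate 2. For Nkg7, a granule membrane protein, the values were 161 and 167 RPKM with IL-21 and 190.0 and 206.8 RPKM with IL-2, which did not pass the test. Gzma had 5.64 and 4.47 RPKM with IL-21 and 8.92 and 9.06 RPKM with IL-2 and did not pass either.

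Effector cytokine and chemokine genes were lower with IL-21 in 14 of 24 tested and higher in none, with a median log2 difference of -2.29 (-1.88 with genes at 0 reads set to their bound, -0.78 with limma). Ifng, the gene of interferon gamma, had 0.507 and 0.281 RPKM in IL-21 + LDHi and 4.24 and 4.25 RPKM in IL-2 + LDHi (log2 difference -3.25 ± 0.29, adjusted p = 4.01e-05). Tnf had 0.210 and 0.350 RPKM with IL-21 and 13.1 and 14.6 RPKM with IL-2 (log2 difference -5.44). In both genes every IL-2 library lay above every IL-21 library. Tnfsf11, which encodes the ligand RANKL, fell by 6.93. Il4 had 0 reads with IL-21 and 72 with IL-2, at least 18.9-fold lower with IL-21 against a floor of 3 reads over the group. Il10 had 10 reads with IL-21 and 0 with IL-2 and was not called. Without inhibitor, Ifng was higher in IL-21 than in IL-2 by 2.67 ± 0.24, and its interaction was -5.92 ± 0.38 (adjusted p = 1.64e-05).

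Transcription factors of effector differentiation were lower with IL-21 in 15 of 22 tested and higher in 2, with a median log2 difference of -1.36 (-0.90 with limma). Tbx21, which encodes T-bet, had 0.870 and 1.35 RPKM in IL-21 + LDHi and 8.78 and 9.40 RPKM in IL-2 + LDHi (log2 difference -2.85 ± 0.26, adjusted p = 4.88e-05). Prdm1, the gene of Blimp-1, fell by 2.16, Irf4 by 3.003, Nfil3 by 2.16 and the Ikaros family member Ikzf2 by 2.247. The higher ones were Runx3, a factor of the CD8 lineage, with 56.5 and 59.1 RPKM against 28.3 and 29.1 RPKM with IL-2 (log2 difference 1.19), and Batf, at 0.65. The Batf call was lost without any 1 of the 4 LDHi libraries or of the 2 IL-2 libraries, which left 1 higher gene.

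Inhibitory receptor and exhaustion genes were lower with IL-21 in 9 of 17 tested and higher in 3. Ctla4, which competes with CD28 for its ligands, had 1.10 and 0.650 RPKM in IL-21 + LDHi and 14.5 and 14.9 RPKM in IL-2 + LDHi (log2 difference -3.89 ± 0.25, adjusted p = 5.41e-06). Pdcd1, the gene of PD-1, was low in all 4 libraries, at 0.348 and 0.424 RPKM with IL-21 and 1.62 and 1.47 RPKM with IL-2 (log2 difference -1.82). Lag3 had 2.29 and 1.29 RPKM with IL-21 and 1.41 and 1.55 RPKM with IL-2, with overlapping groups and no call. Cd160 fell by 3.85 and Entpd1, the ectonucleotidase CD39, by 3.55. Havcr2 (TIM-3) had -1.49 and lost its call without IL-2 + LDHi replicate 1 or either IL-21 + LDHi library (adjusted p = 0.080, 0.068 and 0.065). The 3 higher genes were Btla, Cd200r1 and Nt5e. Cd28, the costimulatory receptor itself, had a log2 difference of -2.37, one of 8 costimulatory receptor genes of 15 that were lower, against 2 higher. The lower count was 5 without IL-21 + LDHi replicate 1 or either IL-2 + LDHi library. The higher count was 0 without IL-21 + LDHi replicate 1 or either IL-2 + LDHi library, and 1 without IL-21 + LDHi replicate 2 or IL-2 replicate 2.

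Killer lectin-like and other NK-type receptors were lower with IL-21 in 13 of 17 tested and higher in 1, with a median log2 difference of -3.73 (-1.77 with limma). Klrk1, which encodes the activating receptor NKG2D, had 0.947 and 0.792 RPKM in IL-21 + LDHi and 16.3 and 14.7 RPKM in IL-2 + LDHi (log2 difference -3.98 ± 0.17, adjusted p = 4.25e-07). Klrc1, the inhibitory NKG2A, fell by 4.40 and the Ly49 family member Klra7 by 3.73. The exception was Cd7, a membrane protein of T and NK cells, with 144 and 140 RPKM in the IL-21 libraries and 40.0 and 38.9 RPKM in the IL-2 libraries. The Ly49 (Klra) genes and the Klrc genes are near-identical within each family, so reads may be split between members of a family.

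Markers of NK cells and of CD4 and regulatory T cells were lower with IL-21 beside these lists, while no B cell marker passed the test. All 8 NK cell markers were lower with IL-21, with summed RPKM of 14.9 and 15.2 in IL-21 + LDHi against 60.8 and 62.4 in IL-2 + LDHi. Eomes, which is also on the list of memory transcription factors, was a large part of these sums. It had 11.0 and 10.8 RPKM with IL-21 and 29.3 and 31.0 RPKM with IL-2. Of the other markers, Ncr1, the NK receptor NKp46, had 0.0418 and 0.0818 RPKM with IL-21 and 4.34 and 3.90 RPKM with IL-2. Klrb1c (NK1.1) had 0.325 and 0.235 RPKM with IL-21 and 4.53 and 4.19 RPKM with IL-2. Of 5 markers of CD4 and regulatory T cells, 4 were lower with IL-21, with sums of 1.89 and 1.54 RPKM in IL-21 + LDHi and 15.2 and 14.2 RPKM in IL-2 + LDHi. Foxp3, the regulatory T cell factor, had 0.441 and 0.349 RPKM with IL-21 and 4.10 RPKM in both IL-2 libraries, while Cd4 itself lay between 0.187 and 0.627 RPKM in all 4. Summed macrophage and dendritic cell markers were 62.7 and 21.5 RPKM with IL-21 and 45.4 and 53.9 RPKM with IL-2, and B cell markers 21.2 and 6.71 RPKM with IL-21 and 10.2 and 8.88 RPKM with IL-2. Of 20 macrophage and dendritic markers tested, 4 were lower with IL-21 and none was higher, beside 16.7% lower over all genes tested. No listed NK, CD4, B or macrophage marker was at 0 in all 4 libraries. The part of such cells in the results was not tested, and in bulk RNA fewer cells of a type and less RNA per cell cannot be told apart. The CD8 and CD3 genes showed the labelled cell type in both groups: Cd8a had 202 and 210.9 RPKM with IL-21 and 288 and 307 RPKM with IL-2, and Cd3e had 198 and 193 RPKM with IL-21 and 193 and 196 RPKM with IL-2, neither called. Of 12 T cell identity genes, Thy1, Cd5 and Cd2 were lower and none was higher. That count of 3 was smaller without IL-21 + LDHi replicate 1 or either IL-2 + LDHi library. It was larger without 1 library of the IL-21 group without inhibitor.

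**Figure D3:**
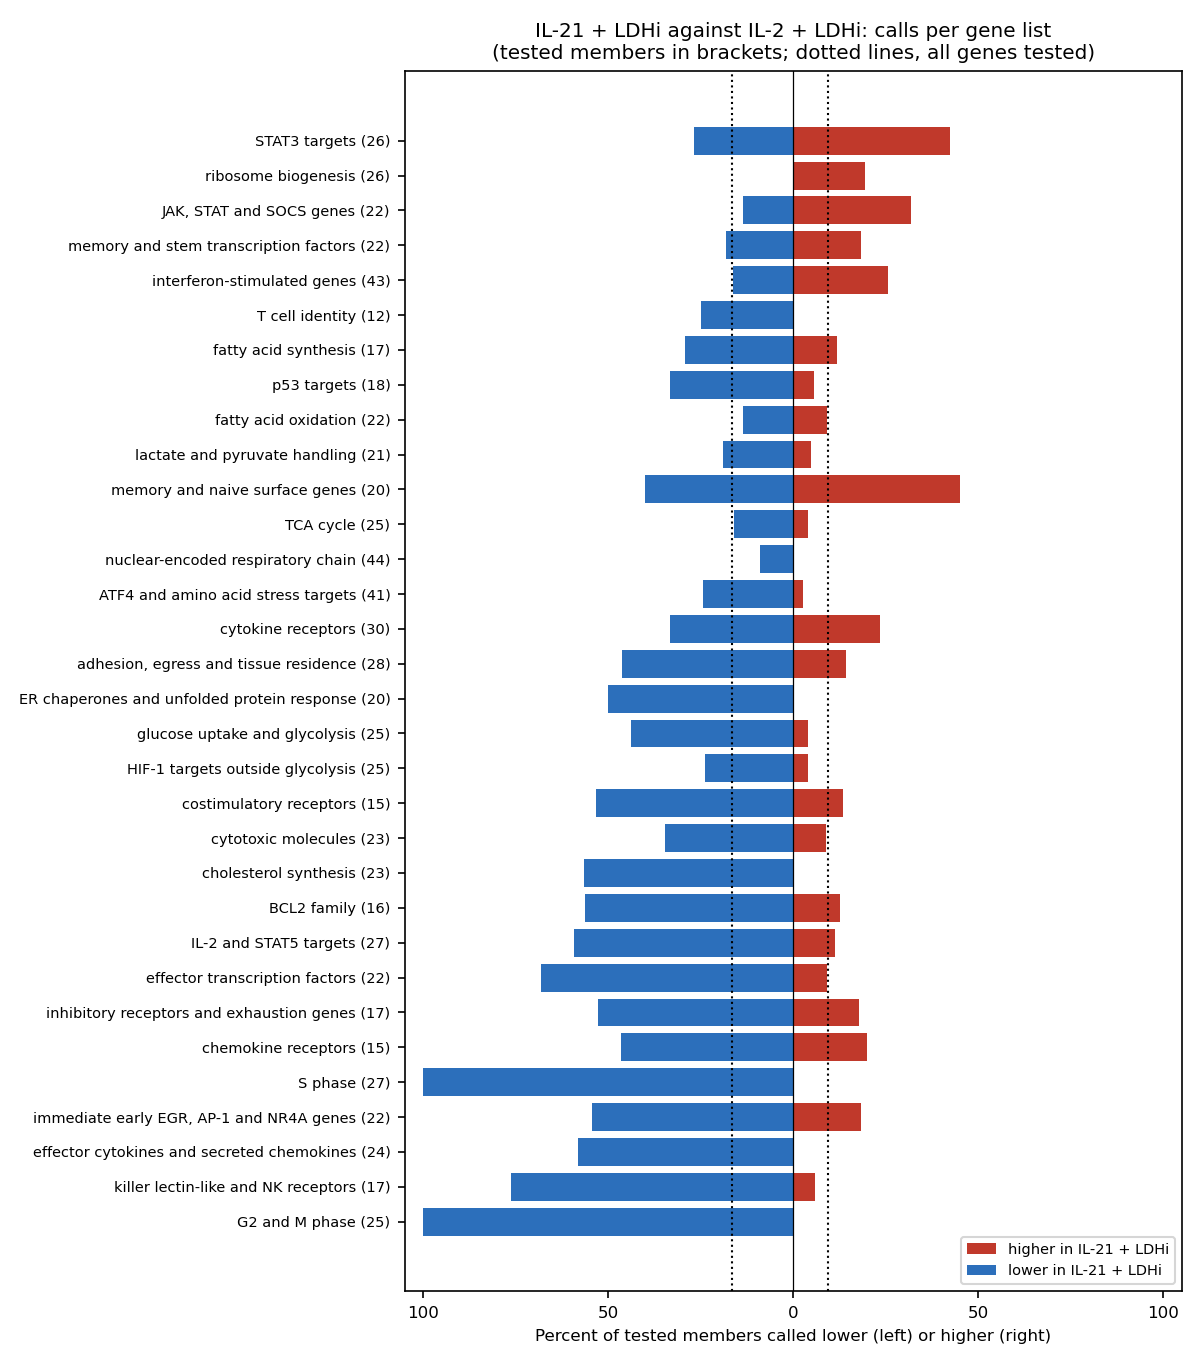
Percent of the tested members of each gene list called lower (left) or higher (right) in IL-21 + LDHi against IL-2 + LDHi, ordered by median log2 difference. Lists with at least 8 tested members are shown, without the marker lists of other cell types such as NK cells. Dotted lines mark 16.7% lower and 9.39% higher over all genes tested; every member of the G2 and M phase and S phase lists was lower.

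Genes of naive and memory cells did not move as one group. Tcf7, the transcription factor TCF-1 of stem-like T cells, had 594 and 573 RPKM in IL-21 + LDHi and 308 and 311 RPKM in IL-2 + LDHi, a log2 difference of 1.10 ± 0.16 (adjusted p = 0.000961). Its partner Lef1 had 104 and 98.7 RPKM with IL-21 and 82.9 and 85.3 RPKM with IL-2, which did not pass the test (log2 difference 0.45, adjusted p = 0.069). The quiescence factors Klf2 and Bach2 rose by 0.82 and 0.81, though the Klf2 call was lost without any 1 of the 4 LDHi libraries or IL-2 replicate 2. Id3, Myb, Gfi1 and Eomes, also listed with memory cells, fell by 2.36, 2.88, 1.58 and 1.29. Of 22 such transcription factors tested, 4 were higher and 4 were lower, and the median log2 difference was 0.03 (-0.13 with limma). Without IL-21 replicate 2 the higher count was 7.

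Among surface genes of naive and memory cells, 9 of 20 tested were higher with IL-21 and 8 were lower. Ccr7, the chemokine receptor for lymph node entry, had 334 and 324 RPKM with IL-21 and 125 and 132 RPKM with IL-2 (log2 difference 1.54 ± 0.22, adjusted p = 0.000873). S1pr1, which guides exit from lymph nodes, rose by 1.20. Ccr7 and S1pr1 were higher in both IL-21 libraries than in either IL-2 library. Ly6a (Sca-1), a surface protein of memory stem cells in mice, had 404 and 437 RPKM with IL-21 and 52.7 and 57.4 RPKM with IL-2 (log2 difference 3.12). Igfbp4, a secreted binding protein of insulin-like growth factors expressed in naive T cells, had 1146 and 1099 RPKM with IL-21 and 35.0 and 35.2 RPKM with IL-2 (log2 difference 5.18 ± 0.20, adjusted p = 2.15e-07). Il7r, the IL-7 receptor of naive and memory cells, had 95.2 and 76.8 RPKM with IL-21 and 132 and 117 RPKM with IL-2 and was not called (log2 difference -0.35).

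Cd44 and Cxcr3, markers of antigen experience on the same list, were lower with IL-21. Cd44, the hyaluronan receptor of activated T cells, had 1.59 and 1.499 RPKM in IL-21 + LDHi and 16.8 and 16.3 RPKM in IL-2 + LDHi (log2 difference -3.24 ± 0.14, adjusted p = 4.14e-07). Cxcr3, a receptor for inflamed tissue, had 4.14 and 4.95 RPKM with IL-21 and 63.4 and 63.1 RPKM with IL-2 (log2 difference -3.62). In neither gene did the groups overlap. Ccr7 did not differ beyond the test without inhibitor (log2 difference -0.04 ± 0.22), and its interaction was 1.58 ± 0.31 (adjusted p = 0.00672).

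Of 15 chemokine receptor genes tested, 7 were lower with IL-21 and 3 were higher. Ccr2, which directs cells to inflamed tissue, had 1.25 and 1.04 RPKM with IL-21 and 31.4 and 29.5 RPKM with IL-2 (log2 difference -4.55 ± 0.30, adjusted p = 6.36e-06). Cxcr6, the receptor for CXCL16, was higher, at 177 and 149 RPKM with IL-21 and 82.5 and 73.4 RPKM with IL-2. Ccr7 was also among the 3 higher genes. Adhesion and tissue residence genes were lower in 13 of 28 tested and higher in 4. Itgae, the integrin chain CD103 of resident T cells, had 2.02 and 2.13 RPKM in IL-21 + LDHi and 21.8 and 20.8 RPKM in IL-2 + LDHi (log2 difference -3.18). Icam1 rose by 1.21. The count of 13 fell to 8 when any 1 of the 4 LDHi libraries was left out.

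Genes downstream of T cell receptor and MAP kinase signalling were mostly lower with IL-21, in 12 of 22 tested against 4 higher. Egr1, an immediate early factor, had 0.650 and 0.630 RPKM in IL-21 + LDHi and 6.68 and 5.95 RPKM in IL-2 + LDHi (log2 difference -3.12). Egr2, Egr3 and the orphan receptor Nr4a1 fell by 2.70, 3.55 and 3.40, as did the MAP kinase phosphatase Dusp5 by 3.68. The 4 higher genes were Jun, Junb, Ier3 and Zfp36. Jun, a subunit of the AP-1 factor, had 27.0 and 29.3 RPKM with IL-21 and 3.82 and 4.19 RPKM with IL-2 (log2 difference 2.99 ± 0.16, adjusted p = 1.38e-06).

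Genes of the BCL2 family, which holds survival and pro-death members, were lower with IL-21 in 9 of 16 tested and higher in 2. Bcl2 had 28.8 and 30.7 RPKM in IL-21 + LDHi and 55.4 and 63.8 RPKM in IL-2 + LDHi (log2 difference -0.82 ± 0.16, adjusted p = 0.00562), and lost its call without IL-21 + LDHi replicate 1 (adjusted p = 0.051). Bcl2l1, which encodes the survival protein BCL-XL, had 2.47 and 2.99 RPKM with IL-21 and 22.2 and 22.8 RPKM with IL-2 (log2 difference -2.86). Mcl1, another survival protein, was higher, at 138 and 140 RPKM with IL-21 and 95.5 and 99.5 RPKM with IL-2 (log2 difference 0.69). The second higher gene was Pmaip1, the pro-death protein NOXA, whose call was lost without any 1 of the 4 LDHi libraries, which left 1 higher gene. The near-identical genes Bcl2a1a, Bcl2a1b and Bcl2a1d were all called lower, but their reads may be split.

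Genes of glucose uptake and glycolysis were lower with IL-21 in 11 of 25 tested and higher in 1, with a median log2 difference of -0.40. Ldha, the main LDH subunit of activated T cells, had 172 and 177 RPKM in IL-21 + LDHi and 273 and 286 RPKM in IL-2 + LDHi. Its log2 difference of -0.50 ± 0.17 narrowly missed the threshold (adjusted p = 0.0563), and it was called with library size alone (adjusted p = 0.0284) and by DESeq2 (adjusted p = 0.0207). Ldhb was low, at 5.21 and 6.66 RPKM with IL-21 and 6.54 and 6.98 RPKM with IL-2. Gapdh had 281 and 279 RPKM with IL-21 and 616 and 652 RPKM with IL-2 (log2 difference -0.997 ± 0.11, adjusted p = 0.00015), and Tpi1, another enzyme of glycolysis, fell by 1.26. Hk2, the inducible hexokinase, had 0.303 and 0.322 RPKM with IL-21 and 2.34 and 2.41 RPKM with IL-2 (log2 difference -2.75). For Slc2a1, the glucose transporter GLUT1, the values were 9.86 and 11.6 RPKM with IL-21 and 12.2 and 13.1 RPKM with IL-2, with a log2 difference of -0.06. The higher gene was Pfkfb2, an enzyme that sets the level of a glycolysis activator. The count of 11 lower genes fell to 7 without IL-2 + LDHi replicate 1 or 2 or without IL-21 + LDHi replicate 2.

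The gap in glycolysis genes was narrower than without inhibitor. Of the same 25 genes, 21 were lower in IL-21 than in IL-2 without inhibitor, with a median of -1.93, and the interaction was higher for 18 and lower for 1. Summed over the list, RPKM was 1000.1 and 1026 in IL-21 + LDHi and 1920.2 and 2020 in IL-2 + LDHi, against 1830 and 1258 in IL-21 and 9678 and 9013 in IL-2. The IL-2 sums thus differed more between cultures with and without inhibitor than the IL-21 sums. For Aldoa, which encodes aldolase, the log2 difference was -0.47 with inhibitor and -3.17 without, with an interaction of 2.70 ± 0.22 (adjusted p = 6.72e-05). HIF-1 targets outside glycolysis were lower with IL-21 in 6 of 25 under LDHi and in 22 of 25 without it, with 15 called higher in the interaction. P4ha1, a collagen prolyl hydroxylase on that list, was higher with IL-21 under LDHi by 1.48 ± 0.15, at 16.9 and 17.8 RPKM against 7.41 and 6.65 RPKM with IL-2, and lower by -1.88 without inhibitor.

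Biosynthesis genes followed a similar order. Genes listed as ATF4 targets and amino acid stress genes were lower with IL-21 in 10 of 41 under LDHi and in 35 of 41 without inhibitor, with 22 called higher in the interaction. Phgdh and Psat1 of serine synthesis fell by 2.00 and 1.73 under LDHi, and Asns, asparagine synthetase, by 3.11. For Asns the difference without inhibitor was -3.51 and the interaction was not called. Cholesterol synthesis genes were lower in 13 of 23 under LDHi and in 22 of 23 without inhibitor. Hmgcs1, the HMG-CoA synthase of that pathway, had 11.9 and 11.0 RPKM with IL-21 and 23.8 and 25.8 RPKM with IL-2 (log2 difference -0.93). The cholesterol count under LDHi fell to between 3 and 6 when any 1 of the 4 LDHi libraries was left out and to 0 in a test against 1.5-fold. Nuclear-encoded respiratory chain genes were lower in 4 of 44 (median -0.22, or -0.40 with limma), a share below the background of 16.7%. That count nearly vanished without any 1 of the LDHi libraries or of the IL-2 libraries without inhibitor. It was far larger without 1 library of the IL-21 group without inhibitor.

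**Figure D4:**
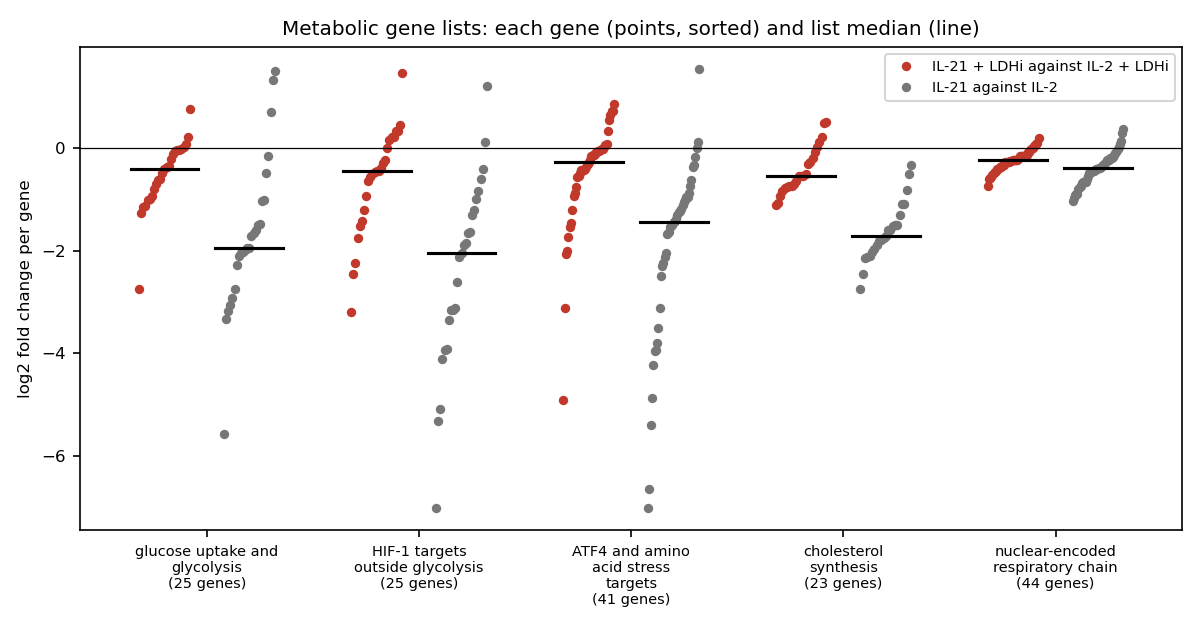
Log2 differences of single genes in 5 metabolic lists, IL-21 + LDHi minus IL-2 + LDHi beside IL-21 minus IL-2, with bars at the medians. The glycolysis medians are -0.40 with inhibitor and -1.93 without, and those of the ATF4 list -0.26 and -1.44.

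Of the 10 largest increases, 3 were described above and 7 were not. Moxd1, a monooxygenase-like protein (chromosome 10, 24223517 to 24302783), had 36.6 and 32.0 RPKM in IL-21 + LDHi, with 10496 reads, and 0 reads in IL-2 + LDHi, at least 4432-fold higher against a floor of 3 reads over the group. Cxcr1, a receptor for CXC chemokines, had 36.5 and 42.6 RPKM with IL-21 and 0.0991 and 0.222 RPKM with IL-2 (log2 difference 8.16 ± 0.35, adjusted p = 4.81e-07). Ggt1, the glutathione-cleaving gamma-glutamyltransferase, had 100.1 and 102 RPKM with IL-21 and 4.12 and 3.99 RPKM with IL-2 (log2 difference 4.82). Moxd1, Cxcr1 and Ggt1 were also higher in IL-21 than in IL-2 without inhibitor. Rgag4, Lrrc6, Ampd1 and Serpinb1a, with log2 differences of 5.49, 5.25, 4.11 and 3.86, completed these 10 beside Igfbp4, Gadd45g and Socs3. Serpinb1a, an inhibitor of neutrophil proteases, did not pass the test without inhibitor, at a log2 difference of -0.13.

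Cdkn3, a cell cycle phosphatase and the first of the 10 largest decreases that the naming rule gave, had 0.0264 and 0.0774 RPKM with IL-21 and 13.3 and 14.4 RPKM with IL-2 (log2 difference -7.79 ± 0.31, adjusted p = 2.93e-07). Mxd3, Melk, Fam64a, Ccna2, Clhc1 and Neil3, at -7.21, -6.81, -6.49, -6.45, -6.39 and -6.37, were also among the 10 largest, beside Tnfsf11 and Cish. Drc1, a ciliary dynein regulator, had 0.135 and 0.238 RPKM with IL-21 and 18.7 and 21.3 RPKM with IL-2 (log2 difference -6.56). Its difference without inhibitor was -7.22 and its interaction was not called.

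Over all genes, the differences between the cytokines with and without inhibitor overlapped in part. The 2 comparisons share no library. Of the 1348 genes higher with IL-21 under LDHi, 819 were also higher without inhibitor (60.8% of those under LDHi and 22.9% of the 3580 without), and 98 were lower. Of the 2394 lower genes, 1484 were also lower without inhibitor (62.0% of those under LDHi and 41.9% of the 3543 without), and 235 were higher. Across the 14357 genes the log2 differences had a Pearson r of 0.373 and a Spearman rho of 0.468, given as a description since genes are not independent. The interaction was called for 3124 genes (21.8%), 1146 higher and 1978 lower, among them all of the 98 and 235 genes with opposite calls. The interaction count ran from 1750 without IL-2 + LDHi replicate 1 to 5203 without IL-21 replicate 1, and the count of the comparison without inhibitor was 4509 without IL-2 replicate 1.

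**Figure D5:**
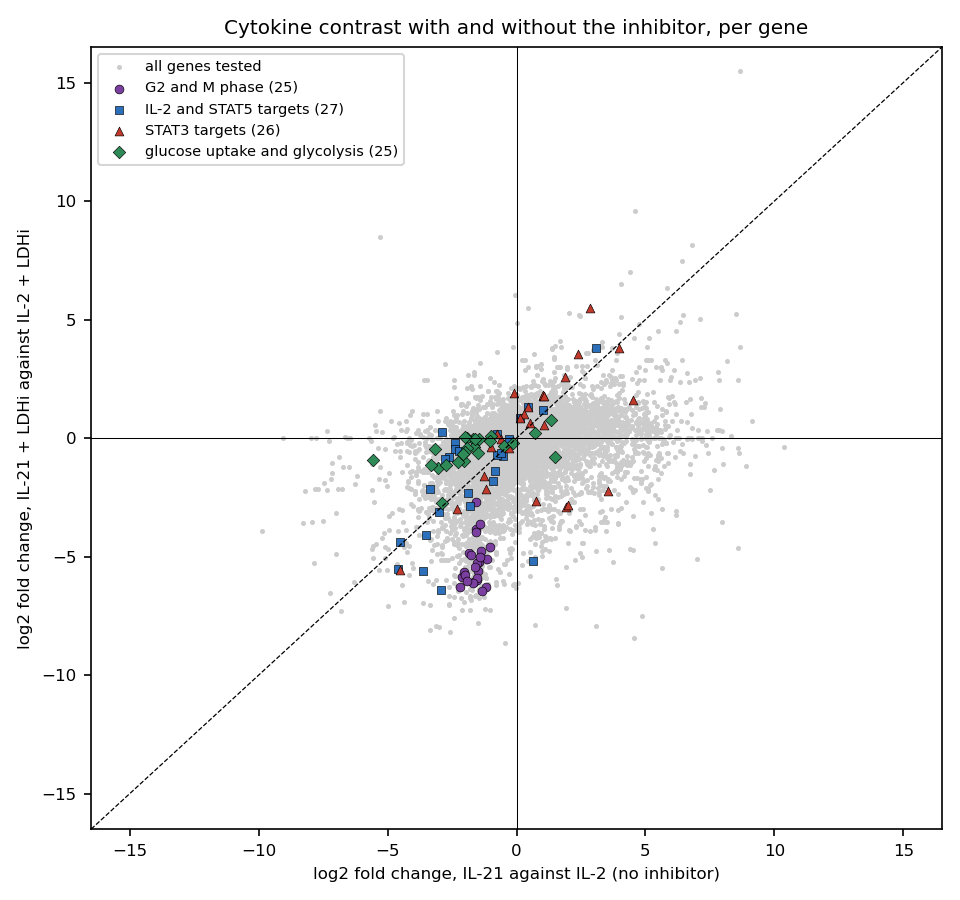
Log2 difference of each gene tested, IL-21 + LDHi minus IL-2 + LDHi (vertical) against IL-21 minus IL-2 (horizontal), with 4 gene lists in colour and a dashed line of equality. G2 and M phase genes lie below the line (medians -5.45 and -1.56) and most glycolysis genes above it (medians -0.40 and -1.93).

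Killer lectin-like and NK-type receptors differed in direction between the comparisons. Under LDHi 13 of 17 were lower with IL-21, and without inhibitor 10 of 17 were higher and none was lower. The interaction was lower for 16 of the 17. Itgae had a log2 difference of -3.18 under LDHi and 2.03 without inhibitor, and Egr3 had -3.55 under LDHi and 3.37 without inhibitor. Beside these counts, summed basophil and mast cell markers were 2.63 and 3.58 RPKM in IL-21 + LDHi and 3.51 and 3.57 RPKM in IL-2 + LDHi, but 109 and 141 RPKM in IL-21 and 6.08 and 6.197 RPKM in IL-2. Summed macrophage and dendritic markers were 129 and 104.6 RPKM in IL-21 and 39.2 and 37.7 RPKM in IL-2. NK cell markers, lower in all 8 under LDHi, were higher in 4 of 8 without inhibitor and lower in all 8 in the interaction. Their sums were 45.2 and 53.5 RPKM in IL-21 and 28.5 and 29.5 RPKM in IL-2. Within these sums Eomes had 15.9 and 15.3 RPKM in IL-21 and 20.7 and 18.9 RPKM in IL-2. Summed neutrophil markers were 12.5 and 23.7 RPKM in IL-21 and 0.574 and 0.266 RPKM in IL-2, and red cell and platelet markers 259 and 279 RPKM in IL-21 and 11.3 and 13.7 RPKM in IL-2. Without inhibitor each of these 5 sums was higher in both IL-21 libraries than in either IL-2 library. Under LDHi neutrophil sums were 0.330 and 0.508 RPKM with IL-21 and 0.410 and 0.504 RPKM with IL-2, and red cell and platelet sums 20.3 and 21.1 RPKM with IL-21 and 14.6 and 15.4 RPKM with IL-2. The part of these cells in the comparison without inhibitor and in the interaction was not tested.

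Kept transcripts held 33989717 and 35092268 reads in IL-21 + LDHi and 46656183 and 36430058 reads in IL-2 + LDHi, or 69.3 and 70.0% of the authors' library totals with IL-21 and 74.2 and 75.6% with IL-2. Pearson's r of log values between replicates was 0.993 in IL-21 + LDHi and 0.996 in IL-2 + LDHi, but 0.971 in IL-21. In a principal component analysis of 1000 variable genes, component 1 (44.2% of variance) placed IL-21 + LDHi at 75.7 and 72.7, IL-2 + LDHi at 19.9 and 18.6, and each of the other 6 libraries between -53.7 and -14.6.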

How the data were processed

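Each deposited table lists RefSeq transcripts with whole read counts made by the authors, and RPKM that the authors computed from these counts, per the file headers, with transcript length and library total. The submitters' processing notes name mm10, TopHat2 2.2.1, Bowtie2 2.2.6, SAMtools 0.1.8, bedtools 2.25.0 and edgeR without a version. Whether counting used strand is not given in these sources, so a gene and its antisense partner cannot be told apart.

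Of 31682 transcripts, 1 was kept for each of 23992 symbols, that with the highest read total of the 10 libraries. Library totals were 45138204 to 62848913 reads, of which 27137191 to 46656183 lay on kept transcripts. Differences were tested on the counts by edgeR's quasi-likelihood test (edgeR 4.0.16, R 4.3.3), robust and with TMM scaling, after filterByExpr removed genes of low counts (settings 10 per library and 15 in total). All 10 libraries entered, so that the 5 groups share 1 estimate of the spread (common biological coefficient of variation 0.171). Tests were two-sided and p-values were Benjamini-Hochberg adjusted over the 14357 genes tested. Each SE equals the size of the log2 difference over the root of its F statistic. The fit was tested on simulated data.

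RPKM values serve as levels. Intervals and floors (3 reads over a group) cover counting error only. Named genes are the 10 largest called, non-overlapping changes per direction with a mean of at least 5 RPKM in the higher group, 5 per direction of the interaction, the 4 members of lowest p in each list at most, and a fixed set; further list members were picked with their values in view. The members and gene lists were chosen with earlier results of these data known. Alternatives were DESeq2 1.42.0, scaling by RLE or by library size alone, no filter, a filter of 5 RPKM in 2 libraries, limma 3.58.1 on log2(RPKM + 1) with a pseudocount of 1, only the groups compared, a replicate block, a test against 1.5-fold, the longest transcript and each library left out. Leaving out both libraries of the IL-21 group without inhibitor was added after seeing the data. Promoter sequences and coordinates come from RefSeq tables of GRCm38.p6. Python 3.11.15 with pandas 2.3.3 prepared the tables. Some genes the rule names are not reported here.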

Additional observations from a re-analysis of the deposited data

Results flagged for a closer look

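In 16 named genes IL-21 and IL-2 differed in opposite directions with and without the inhibitor, each called in both comparisons and in the interaction (edgeR's quasi-likelihood test, Benjamini-Hochberg adjusted p under 0.05). In 14 of them the gene was lower with IL-21 under LDHi and higher with IL-21 without inhibitor. Over all genes tested, 235 had opposite calls in that direction and 98 in the other. Many named genes were picked for a large difference or a low p under LDHi, so the 14 of 16 does not describe all genes. Values below are interaction log2 differences.

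Among effector and receptor genes, the interaction was -5.92 for Ifng, -5.51 for Cd160, -2.84 for Havcr2, -5.40 for Klrc1, -5.58 for Klra1, -4.80 for Klra7 and -4.78 for Klra9. The Klra genes are near-identical, and their reads may be split. Among migration and adhesion genes it was -5.51 for Ccr2, -5.21 for Itgae and -5.04 for Itga1. Pdgfb, a growth factor, had -2.74 and the interferon-stimulated gene Cmpk2 had -2.36. Itgax and Lyz2, listed as myeloid markers, had -7.13 and -6.21, and Lyz2 lost its call under LDHi without IL-21 + LDHi replicate 1 or IL-2 + LDHi replicate 2. Both genes are part of the summed macrophage and dendritic markers. These sums were 62.7 and 21.5 RPKM in IL-21 + LDHi and 45.4 and 53.9 RPKM in IL-2 + LDHi. Without inhibitor they were 129 and 104.6 RPKM in IL-21 and 39.2 and 37.7 RPKM in IL-2. The part of such cells was not tested.

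Only P4ha1 (3.36) and Neb (5.91) of the 16 were higher with IL-21 under LDHi and lower without inhibitor. Neb, a giant muscle protein, had 3.59 and 4.15 RPKM in IL-21 + LDHi and 0.529 and 0.471 RPKM in IL-2 + LDHi, against 0.768 and 0.862 RPKM in IL-21 and 6.39 RPKM in both IL-2 libraries.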

How the results depend on the processing

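Of 183 named genes tested, 155 were called in IL-21 + LDHi against IL-2 + LDHi. Many were named for a large difference or a low p in this same comparison, so the counts in this paragraph do not describe all genes. None of the called genes changed sign with 1 library left out, and 24 lost the call in at least 1 such fit. With RLE size factors and with the longest transcript all 183 kept their side of the threshold; with DESeq2 179 did and 4 more were called. A test against 1.5-fold took the call from 30 and limma from 14.

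A test against 1.5-fold called 1757 genes (360 higher, 1397 lower), and a fit of only the groups compared called 7352 (3494 higher, 3858 lower). With limma 574 were higher, and with the filter of 5 RPKM 1557 were lower. Leaving out both libraries of the IL-21 group without inhibitor gave 2303 higher. Without inhibitor the counts were 4349 with the 5 RPKM filter, 4522 with only the groups compared and 3541 against 1.5-fold, and for the interaction 1984 with the 5 RPKM filter and 1665 against 1.5-fold. With each library left out, the calls under LDHi ran from 2055 to 5493, the higher from 500 to 2349 and the lower from 1541 to 3144, those without inhibitor from 4509 to 8370, and the interaction from 1750 to 5203. The test against 1.5-fold kept 47.0% of the main calls under LDHi. Among the fits with 1 library left out, that share was lowest without 1 of the 4 LDHi libraries. The cause was not tested.

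Genes not called that changed sign with a library left out had log2 differences from -2.17 to 2.40 for Fam183b, -0.90 to 0.34 for Mpo, -3.94 to 3.30 for Prg2, -0.029 to 0.81 for Lag3, -0.19 to 0.15 for Ldhb, -0.17 to 0.040 for Slc2a1, -0.059 to 4.52 for Pax5 and -0.048 to 1.94 for Prss34. Ngp, not called either, ran from 0 to 3.29.

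The labels do not say that a replicate number marks a shared source. Deviations of same-numbered libraries in IL-21 + LDHi and IL-2 + LDHi correlated at 0.11 across genes, with -0.15 to 0.48 between other groups. With the replicate number as a block, 3652 genes were called (1293 higher, 2359 lower).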

Other observations

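Interferon-stimulated genes were higher with IL-21 under LDHi in 11 of 43 tested, against 9.39% of all genes tested. A further 7 were lower, a share close to the 16.7% of all genes tested. Oas2, an antiviral RNA sensor, had 3.41 and 4.25 RPKM in IL-21 + LDHi and 0.527 and 0.720 RPKM in IL-2 + LDHi (log2 difference 2.80), and Zbp1, a sensor of nucleic acids, rose by 0.91. The interferon-inducible GTPase genes Gbp4 and Igtp were lower, at -1.04 and -0.72. The higher count was 7 without IL-2 + LDHi replicate 1 or IL-21 + LDHi replicate 2, and the lower count 3 or 4 without any 1 of the LDHi libraries.

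Genes of protein folding in the endoplasmic reticulum were lower with IL-21 in 10 of 20 and higher in none. Hsp90b1, the chaperone GRP94, had 82.3 and 64.0 RPKM in IL-21 + LDHi and 180.1 and 171 RPKM in IL-2 + LDHi (log2 difference -1.08), and Xbp1, the transcription factor of that response, fell by 1.39. Ribosome biogenesis genes were higher in 5 of 26, with a median of 0.15 that is -0.03 with limma on RPKM. That count of 5 vanished without IL-21 + LDHi replicate 2 or either IL-2 + LDHi library. It was smaller without IL-21 + LDHi replicate 1 or either IL-2 library without inhibitor. It was larger without 1 library of the IL-21 group without inhibitor, where some genes were also lower.

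For the interaction the naming rule gave Fam183b, Moxd1, Mgarp, Ak4 and Neb upward, and Gzmc, Mpo, Itgax, Ctsg and Prg2 downward. For several of them a group lies at or near 0 reads, so their exact size and order carry little weight. Prg2 had 2 reads in IL-21 + LDHi and 4 in IL-2 + LDHi, and Ctsg 3 in IL-21 + LDHi and 11 in IL-2 + LDHi. Mpo, Ctsg and Prg2 encode granule proteins of myeloid cells, and the summed neutrophil, basophil and macrophage markers stand beside the comparison without inhibitor. Mpo is itself on the neutrophil list. It had 6.55 and 10.5 RPKM in IL-21, where the neutrophil sums were 12.5 and 23.7 RPKM.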
